A study of Mus musculus with 2 samples.

Results

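The DNA replication genes described here are 46 mouse genes chosen by name, covering the proteins that recognise and license origins, unwind DNA, synthesise and join the new strands, and supply deoxynucleotides. All 46 have a row in the deposited table of gene activity, with 56 RefSeq entries among its 24165 entries of 20128 gene symbols. Activity was measured by global run-on sequencing (GRO-seq), in which engaged RNA polymerases in isolated nuclei extend their transcripts with bromouridine, an antibody against it pulls these transcripts down, and they are then sequenced. The nuclei came from C2C12 cells, an established line of mouse myoblasts, grown in high-glucose medium with fetal bovine serum to 80% confluency with no treatment, and 4 plates of 10 cm went into each nuclei isolation. The 2 replicate libraries were pooled by the authors into 1 value per entry, in RPKmM, a form of RPKM in which the length of a gene is that of its mappable bases, counted on the sense strand from 1 kb after the transcription start site (TSS) to the transcript end. There is thus no spread between replicates and no test, and the differences below are between single values. Rounding to 2 decimals can shift a replication gene's value by up to 0.943%, for Gins2. The read depth behind a value is not in the table. In a pooled culture, the number of cells that transcribe a gene and the rate in each of them cannot be told apart, and the labels name no synchronisation of the cell cycle.

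Before S phase, the origin recognition complex (ORC), Cdc6 and Cdt1 load the Mcm2 to Mcm7 helicase onto DNA. At the onset of S phase, Cdc45 and the GINS complex join the helicase, polymerase alpha-primase makes the first primers, and polymerases delta and epsilon extend them, held on DNA by the sliding clamp Pcna. Many of these genes are known targets of the E2F family of transcription factors, whose activity rises as cells commit to division, and myoblasts lose it when they leave the cell cycle to form muscle fibres.

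The labelled cell type was compared with marker genes first. All 7 myoblast markers were active, from 0.82 RPKmM for Msc to 146.13 for the intermediate filament gene Vim, with Myod1 at 2.39 and Myf5 at 5.03. Among 7 genes of differentiated muscle, all were active too, where 70.2% of all entries in the table were. The highest was Acta1 at 6.85, with Myog at 2.39 and the muscle creatine kinase gene Ckm at 0.2. Of 8 markers of other cell types, 4 were inactive, among them Alb and Ptprc, and the others did not exceed 0.03. Summed over each list, the highest activity per gene came to 248.19 for myoblast markers, 12.8 for differentiated muscle and 0.06 for other cell types. Most of the first sum came from the intermediate filament genes Vim and Des (72.45), and Myod1 and Myog were equal. A share of differentiating cells in the culture and its part in the values below were not tested.

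All 56 replication gene entries were active by the authors' comparison with gene deserts, where 70.2% of all entries in the table were. Their activity ran from 0.53 RPKmM for Gins2, a subunit of the GINS complex, to 21.3 for Top2a, the topoisomerase that separates intertwined sister chromosomes. The median was 1.345 (quartiles 0.95 and 2.475), against 0.87 (0.22 and 1.99) over the 16901 other active entries, so that the ratio of medians was 1.55. The ratio depends on how low entries are weighted, and was 4.34 with all entries and inactive ones taken as 0, and 2.62 or 2.83 between geometric means after adding 0.01 or 0.001. The upper quartile of the replication genes was 2.61 times their lower quartile, while among the other active entries it was 9.05 times. All 56 entries lay at or above 0.5, where 44.6% of all entries in the table did, and the range below held 6184 (36.6%) of the other active entries. At or above 1 lay 41 of the 56 entries, where 32.3% of all entries in the table did, and at or above 2 lay 16, where 17.5% of the table did. Of the other active entries, 45.9% lay at or above 1, against 73.2% of the 56. At or above 2 these shares were 24.97% and 28.6%. At 4 or above they were alike, with 6 of 56 (10.7%) and 1761 of 16901 (10.4%). Against the other active entries, the shares thus differed most in the range below 0.5. Top2a, Orc6, Rrm2, Rpa3, Tyms and Rrm1 were the 6 entries at 4 or above.

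Among the initiation genes, the 6 subunits of ORC differed more than those of any other complex described here, because of Orc6. Orc6 (NM_001163791), the smallest subunit, had an activity of 9.03 RPKmM, above 96.7% of the other active entries. Orc1 had 1.27, Orc3 1.77 and Orc5 1.35. Orc2 had 1.22 and 1.17 in its 2 entries, and Orc4 had 2.52, 2.51 and 2.49 in its 3 entries. Orc6 was thus 3.58 times the next highest ORC gene, Orc4, while the other 5 genes lay between 1.17 and 2.52. Orc6 is a gene of 8.65 kb on chromosome 8 (mm9, from 87823531 to 87832177, plus strand) in the GENCODE vM1 annotation, whereas Orc5 and Orc4 span 63.9 and 47.5 kb. The licensing factors lay close together. Cdc6, the ATPase that works with ORC in loading the helicase, had 1.52 and 1.55, and Cdt1, which brings the helicase to the origin, had 1.35. Gmnn, encoding geminin, the inhibitor of Cdt1, had 1.87, or 1.39 times Cdt1.

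The 6 genes of the helicase ring, whose products assemble in equal numbers, did not have equal activity. Mcm4 was highest at 3.16 RPKmM, followed by Mcm5 at 2.65, Mcm3 at 2.47, Mcm6 at 2.36 and Mcm7 at 1.79. Mcm2 was lowest at 0.95, so that Mcm4 was 3.33 times Mcm2 and Mcm7 1.88 times. Apart from Mcm2, each of them lay above 71.9% or more of the other active entries, and Mcm2 above 52.5%. The genes whose products turn the loaded ring into a moving helicase were less active, with a group median of 0.82 over 9 entries against 2.42 for the ring. Cdc45 had 1.23 in both of its entries. Of the GINS genes, Gins3 had 1.34, Gins4 0.84, Gins1 0.82 and 0.71, and Gins2 0.53, a ratio of 2.53 between the highest and the lowest. Mcm10, which is needed for helicase activation and is no part of the ring, had 0.65 and 0.67.

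The polymerase genes were similarly low, with medians of 0.95 RPKmM for polymerase alpha-primase and 0.79 for polymerases delta and epsilon. Pola1, the catalytic subunit of polymerase alpha, had 0.95, and Pola2, its second subunit, had 0.57 and 0.55. The primase subunits Prim1 and Prim2 were nearly equal, at 1.04 and 1.08, although their genes span 14.9 and 216.0 kb. For polymerase delta, the catalytic subunit gene Pold1 had 0.74, Pold2 0.79 and Pold3 1.2. For polymerase epsilon, the catalytic subunit gene Pole had 1.31 and Pole2 had 0.6, a ratio of 2.18. None of these 10 entries reached the upper quartile of the other active entries.

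Pcna, the sliding clamp, had an activity of 1.35 RPKmM, close to the median of all replication gene entries. Of the clamp loader genes, Rfc1, the large subunit, was highest at 1.86. The small subunits followed with Rfc5 at 1.08, Rfc2 at 1.07, Rfc4 at 0.71 and Rfc3 at 0.61, so that Rfc1 was 3.05 times Rfc3. For the processing of Okazaki fragments, the flap endonuclease gene Fen1 had 1.29, and the DNA ligase gene Lig1 had 1.84, 1.88 and 1.89 in 3 entries.

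Higher activity was found for the genes of the single-strand binding protein RPA and of deoxynucleotide supply. Rpa1, Rpa2 and Rpa3, encoding the large, middle and small subunits of RPA, had 3.4, 3.86 and 7.11 RPKmM, above 86.9%, 89.0% and 95.4% of the other active entries. The gene of the small subunit was thus 2.09 times that of the large one. Rpa3 is also the shortest of all 46 genes, at 3.24 kb, which leaves little sequence after the first kilobase to count reads on. Rrm2, the small subunit of ribonucleotide reductase, had 8.01, and Rrm1, the large subunit, had 4.9, a ratio of 1.63. Tyms, the thymidylate synthase, had 4.97, and Tk1, the thymidine kinase of the salvage route, had 2.72. All 4 genes of this group lay above the upper quartile of the other active entries. Top2a (NM_011623) on chromosome 11 (mm9, from 98854257 to 98885503, minus strand) exceeded every other replication gene. At 21.3 it ranked 187th of the 16957 active entries and was 2.36 times Orc6.

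**Figure D1:**
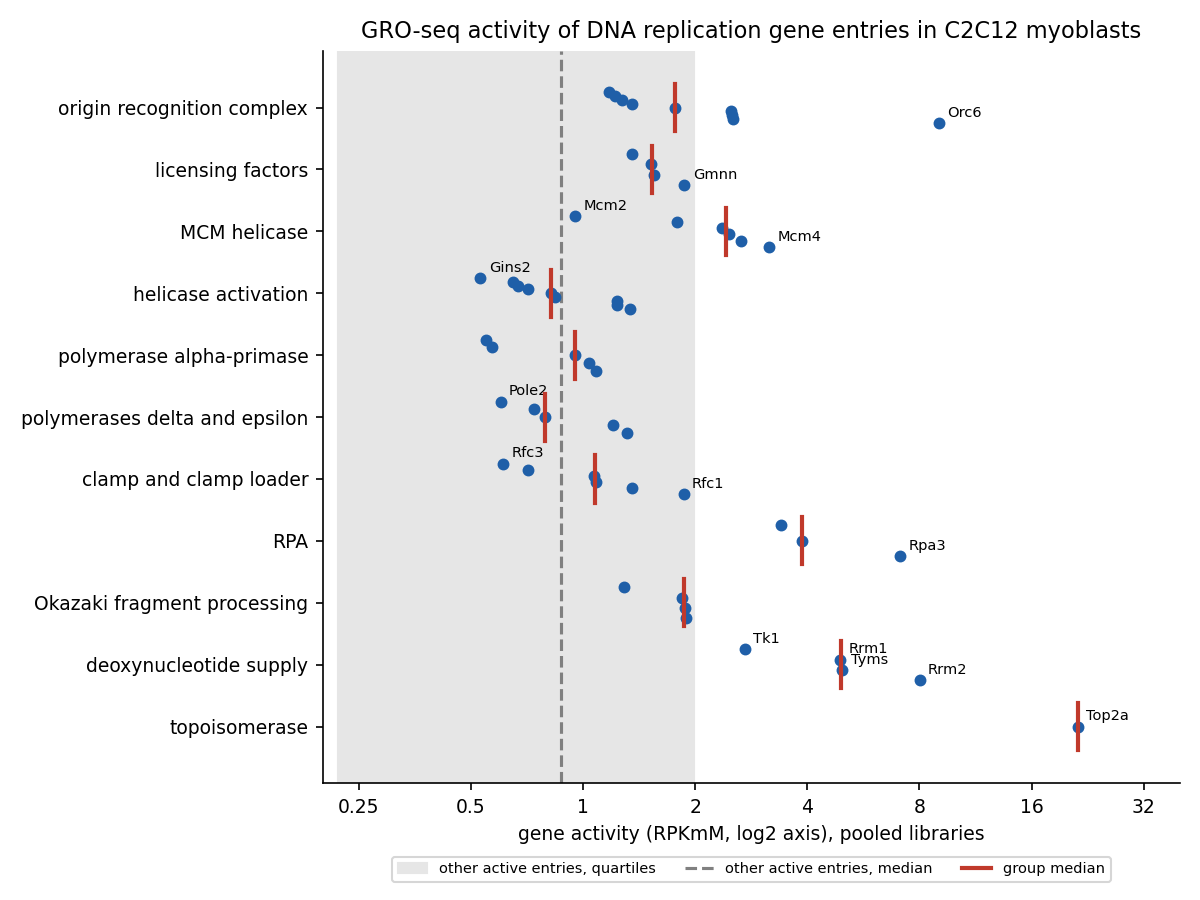
Gene activity (horizontal axis, RPKmM, log2 scale) of the 56 RefSeq entries of 46 DNA replication genes, by role (vertical axis), with each point 1 entry of the pooled libraries and red bars the group medians. Grey shading spans the quartiles of the 16901 other active entries, 0.22 to 1.99, and the dashed line their median of 0.87. Polymerase and helicase activation genes lie around that median, while RPA and deoxynucleotide supply genes, Orc6 and Top2a lie above the shading. So do Mcm3, Mcm4, Mcm5, Mcm6 and the entries of Orc4.

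Several members have more than 1 RefSeq entry, which gives a view of how far activity depends on the transcript model. The 8 genes with several entries, 18 entries in all, differed little within a gene. The largest ratio was 1.15, for Gins1, and Cdc45 had none. Among all 2273 genes with several active entries above 0, the median ratio was 1.10, and 955 (42.0%) exceeded that of Gins1. These entries are transcript models of the same gene and are no replicates.

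Promoter sequences were available for 38 of the 46 genes, as 46 windows of 300 bases that reach from 250 bases before to 50 after a RefSeq start (GRCm38.p6). The genes without a window in this table were Gins1, Gins2, Gins4, Gmnn, Mcm4, Pole, Prim2 and Rfc2. On both strands, 2 kinds of motif were counted. The E2F-type motif was taken as TTTCCCGC, TTTCGCGC, TTTGCCGC or TTTGGCGC, and the CCAAT box, to which the factor NF-Y is known to bind, as CCAAT. Matches of the E2F-type motif on opposite strands may overlap each other and were then counted separately. The sequences below are the 250 bases before the start, read 5′ to 3′ in the direction of transcription, with both kinds of match in capitals. They show a gene with CCAAT boxes alone at the top of the range (Top2a, Rrm2), helicase genes with both motifs (Mcm5, Mcm6), and a licensing gene with an E2F-type match alone (Cdc6).
Top2a, chr11:99024190-99024439, minus strand: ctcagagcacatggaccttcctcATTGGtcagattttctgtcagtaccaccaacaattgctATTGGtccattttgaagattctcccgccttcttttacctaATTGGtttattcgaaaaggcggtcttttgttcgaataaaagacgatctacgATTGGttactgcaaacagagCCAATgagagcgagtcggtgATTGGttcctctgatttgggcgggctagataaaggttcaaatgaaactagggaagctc
Rrm2, chr12:24708004-24708253, plus strand: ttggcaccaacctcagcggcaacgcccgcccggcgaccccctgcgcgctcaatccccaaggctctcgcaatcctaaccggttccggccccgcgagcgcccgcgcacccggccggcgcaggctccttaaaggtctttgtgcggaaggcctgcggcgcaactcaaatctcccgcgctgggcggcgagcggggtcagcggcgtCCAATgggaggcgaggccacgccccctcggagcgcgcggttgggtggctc
Mcm5, chr8:75109259-75109508, plus strand: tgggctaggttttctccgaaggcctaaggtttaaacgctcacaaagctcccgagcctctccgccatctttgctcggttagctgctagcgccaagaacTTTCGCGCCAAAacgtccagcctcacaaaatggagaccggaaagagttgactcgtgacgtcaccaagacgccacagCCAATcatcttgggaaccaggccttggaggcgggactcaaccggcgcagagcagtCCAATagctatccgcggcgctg
Mcm6, chr1:128359706-128359955, minus strand: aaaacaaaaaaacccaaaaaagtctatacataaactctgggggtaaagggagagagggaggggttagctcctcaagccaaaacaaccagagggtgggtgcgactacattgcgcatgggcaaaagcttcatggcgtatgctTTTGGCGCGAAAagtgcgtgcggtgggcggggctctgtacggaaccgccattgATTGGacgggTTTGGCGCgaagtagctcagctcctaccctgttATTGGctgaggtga
Cdc6, chr11:98907901-98908150, plus strand: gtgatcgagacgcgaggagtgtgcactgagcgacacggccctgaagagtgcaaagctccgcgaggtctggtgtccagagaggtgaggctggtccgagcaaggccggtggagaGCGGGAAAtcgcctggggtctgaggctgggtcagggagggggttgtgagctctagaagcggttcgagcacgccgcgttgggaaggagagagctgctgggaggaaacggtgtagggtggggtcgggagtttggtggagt

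An E2F-type match was found in 15 of the 46 windows (32.6%), belonging to 15 genes, against 744 of all 32851 promoter windows (2.26%) and 552 of the 18704 windows of other genes in the table (2.95%). In the 200 bases before the start alone, 9 windows (19.6%) of 9 genes had a match. The share was 1.58% of all windows and 2.04% of those of other genes in the table. The matches of Cdt1, Lig1, Mcm3, Pold1, Pold3 and Pole2 lie after the start. CCAAT was found in 26 windows (56.5%) of 24 genes, against 37.4% of all promoter windows. Both motifs together were present in 8 windows (17.4%), against 0.962% of all and 1.23% of those of other genes in the table. The windows of replication genes were also rich in CpG, with a median of 21 CpG and 58.8% G and C, compared with 15 and 57.7% in the windows of other genes in the table, and a part of base composition in the motif shares was not tested. Among the helicase genes, E2F-type motifs were found for 4 of the 5 with a window, Mcm3, Mcm5, Mcm6 and Mcm7. In Mcm5 the E2F-type matches began 153 and 149 bases before the start, and in Mcm6 110, 106 and 47 bases before it. The single E2F-type match of Cdc6 began 138 bases before its start. Mcm2, the least active of the ring, had a CCAAT match 175 bases before its start and no E2F-type match. Other genes with an E2F-type match were Cdc6, Cdt1, Orc1, Orc3, Gins3, Pola1, Pold1, Pold3, Pole2, Rfc3 and Lig1.

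Activity ran from 0.6 RPKmM for Pole2 to 2.65 for Mcm5 among the 15 genes with an E2F-type match, and from 0.57 to 21.3 among the 23 genes without. The median was 1.35 in both. The 24 genes with CCAAT had a median activity of 1.83 (quartiles 1.18 and 3.52) and the 14 without had 1.32 (0.825 and 1.72), so that the ranges overlapped widely. Top2a had 6 CCAAT matches, more than any other window here, with first bases from 227 to 58 before the start, and 17 (0.0909%) of the windows of other genes in the table had as many. Rrm2 and Orc6 had a single CCAAT match each, 50 and 54 bases before the start. Absence of these letters from a window says nothing about whether a factor binds there.

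**Figure D2:**
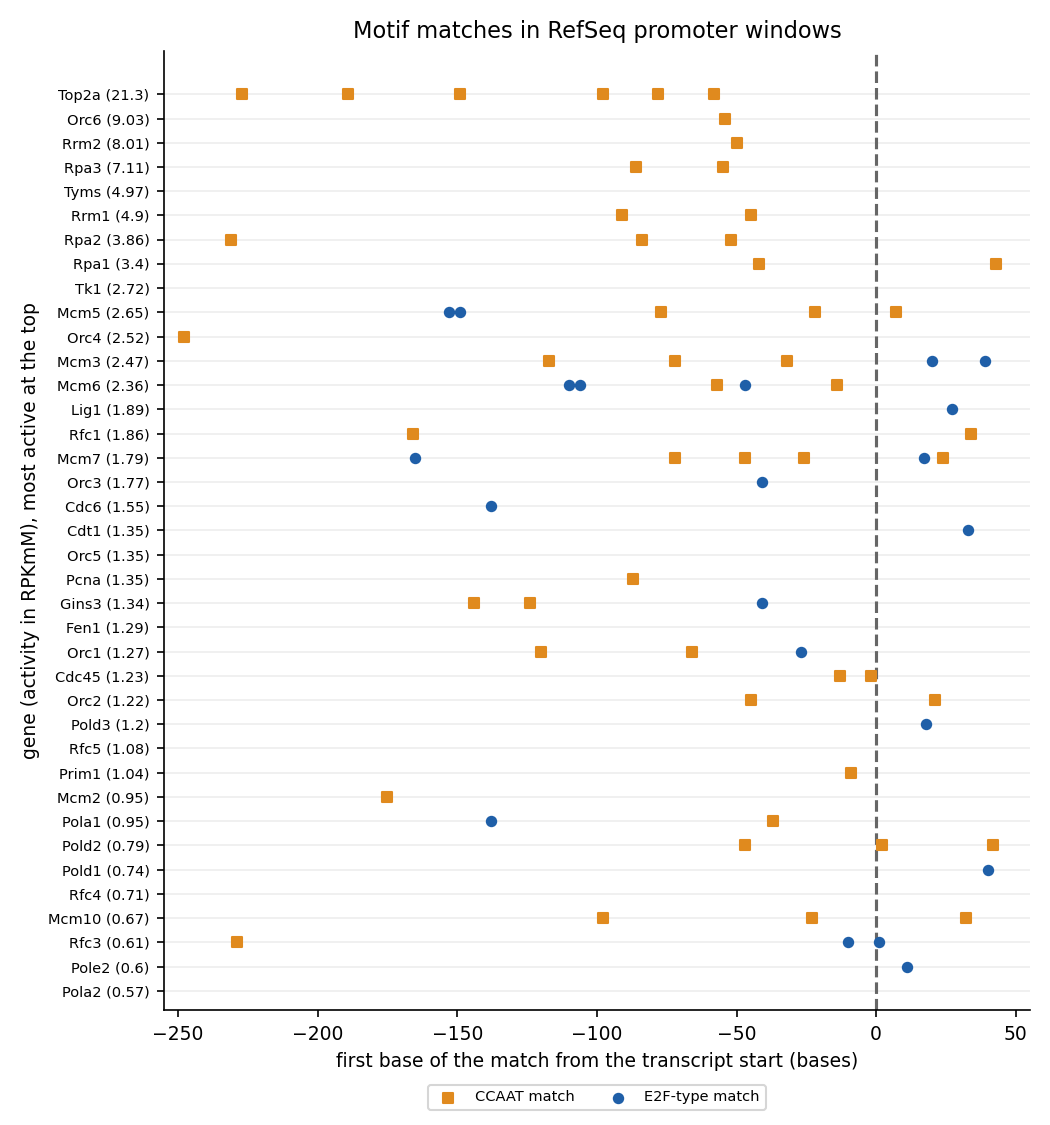
Position of E2F-type matches (blue circles) and CCAAT matches (orange squares) relative to the transcript start (horizontal axis, bases) for the 38 genes with a promoter window, ordered by activity in RPKmM from the most active at the top. Matches of all windows of a gene are drawn on 1 line, each from its own start. Genes with a blue circle run from 0.6 to 2.65, and Top2a has 6 orange squares.

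Replication genes often start next to another gene. For 18 of the 46 (39.1%), the GENCODE vM1 annotation (mm9) has a gene on the opposite strand whose start lies within 1 kb, compared with 2940 of 17421 genes of the table matched to the annotation (16.9%). For 13 of these the neighbour has a value in the table, so that both activities could be compared. Whether the genes of a pair diverge or overlap at their starts was not checked. The replication gene was the more active in 10 of 13 pairs, with a median ratio of 2.38 and a range from 0.399 to 7.73. No such share was computed for other pairs, and 43 of the 56 replication gene entries lay above the median of the other active entries in any case. Rpa1 had 3.4 RPKmM and Smyd4, starting 109 bases away, had 0.44. Mcm4 had 3.16 and Prkdc, the catalytic subunit of the DNA-dependent protein kinase, had 0.6, with their starts 466 bases apart. Rpa3 had 7.11 and Umad1 0.99, and Orc3 had 1.77 and Rars2, a mitochondrial arginyl-tRNA synthetase, 0.73. Orc5 had 1.35 beside a non-coding RNA gene at 0.22, Pole 1.31 beside the peroxisomal membrane protein gene Pxmp2 at 0.34, and Orc4 2.52 beside Mbd5 at 1.06. Smaller differences were found for Fen1, at 1.29 beside Tmem258 at 0.65, and for Mcm7, at 1.79 beside Ap4m1 at 1.2. Orc6 lies 119 bases from Vps35, a subunit of the retromer, and this is the pair in which both genes were highly active, at 9.03 and 5.38. The neighbour was higher for Cdc45, at 1.23 beside Ufd1l at 3.08, for Orc1, at 1.27 beside the splicing factor gene Prpf38a at 1.8, and for Gins1, at 0.82 beside Abhd12 at 1.06. Activities of both members of a pair were thus neither equal nor fixed in direction.

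**Figure D3:**
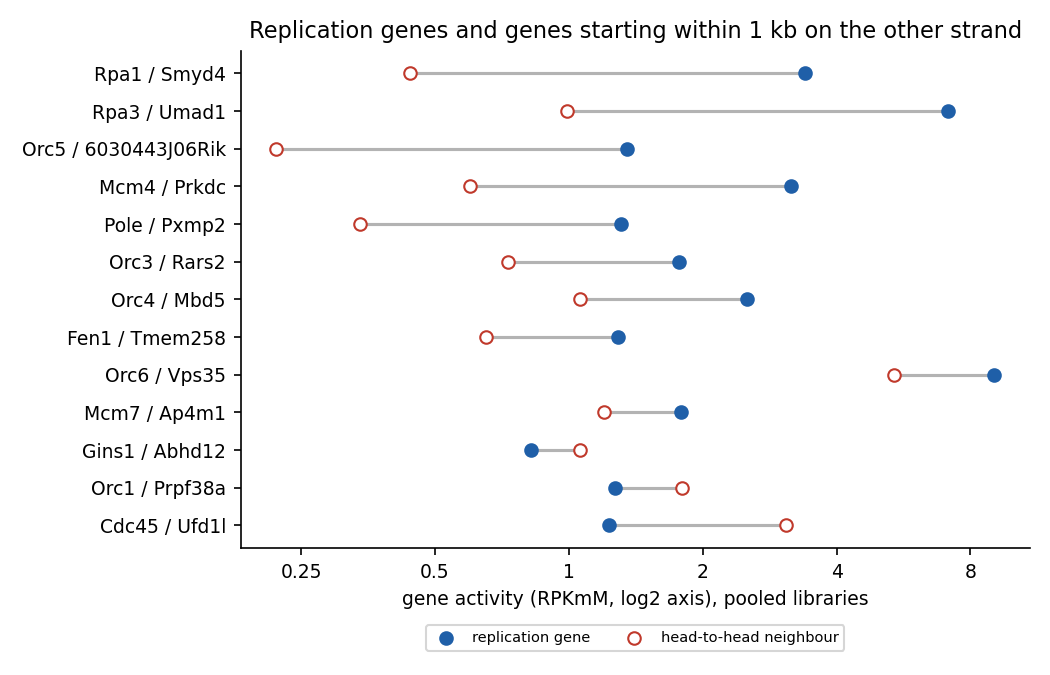
Gene activity (horizontal axis, RPKmM, log2 scale) of 13 replication genes (filled blue) and of the gene that starts within 1 kb on the opposite strand (open red), 1 pair per line, highest entry of each gene. The replication gene lies to the right in 10 pairs, and Cdc45, Orc1 and Gins1 lie to the left of their neighbours.

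Reads of a gene upstream on the same strand can run past its end, so such neighbours within 10 kb were listed. They were active for 10 of the 46 genes (21.7%), compared with 2559 of the 17421 matched genes of the table (14.7%), and more active than the replication gene for 4. Dars had 4.13 RPKmM beside Mcm6 at 2.36, Golga7 1.54 beside Gins4 at 0.84, Optn 1.3 beside Mcm10 at 0.67, and Nr1h2 0.97 beside Pold1 at 0.74. For the other 6 genes the upstream neighbour was the less active, as Stim1 at 0.31 beside Rrm1 at 4.9. Small RNA genes lie on the same strand inside 6 of the 46 genes (13%), and overlap 867 of the 17421 (4.98%). These are Mir25, Mir93 and Mir106b in Mcm7, a snoRNA in each of Top2a, Pole and Pola1, and a U6 copy in Orc2 and in Orc5. The part of either in the values was not tested.

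A further list of 70 names of replication genes and of their E2F regulators, chosen for their roles and containing none of the 46, was compared with them. And1 among them is another name of Wdhd1, also listed, and 66 genes had entries, 82 in all, and all 82 were active, where 70.2% of all entries in the table were, with a median of 1.65 RPKmM (quartiles 0.868 and 2.60). Without the E2F and DP transcription factors, the median of the other 66 entries was 1.46. At or above 1 lay 58 of the 82 (70.7%), where 32.3% of the table did, and 4 lay below 0.5. Several members have a counterpart that serves another task. Top2a at 21.3 was 2.46 times Top2b at 8.65, the topoisomerase that is also made in cells that no longer divide. Rrm2 at 8.01 was 34.8 times Rrm2b at 0.23, the small reductase subunit that works outside S phase, and Tk1 at 2.72 was 5.33 times the mitochondrial thymidine kinase Tk2 at 0.51. The order was the opposite for the ligases, where Lig3 at 3.9 was 2.06 times Lig1, while Lig4, the ligase of end joining, had 0.4. Mcm8 and Mcm9, relatives of the helicase genes with a role in recombination, had 0.78 and 0.89, below each gene of the ring. Pole4, an accessory subunit of polymerase epsilon, had 1.46, and Pold4 and Pole3 have no row in the table. Dbf4, the regulatory subunit of the kinase that activates the helicase, had 3.25, and Cdc7, the kinase itself, had 1.88 and 1.89.

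All 8 E2F genes were active. E2f3 was highest, at 6.66 and 6.54 RPKmM in 2 entries, followed by E2f2 at 5.18 and 5.08 and E2f4 at 4.03. E2f8 and E2f7, the atypical repressors of the family, had 3.06 and 2.12, E2f6 had 2.45 and E2f5 2.27. E2f1 was lowest of the family, at 1.48 and 1.67. Of the dimer partners, Tfdp1 had 2.6 in both entries and Tfdp2 0.59 to 0.65. The 16 entries of these 10 genes had a median of 2.53, and all entries but those of Tfdp2 lay above the median of the replication genes.

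**Figure D4:**
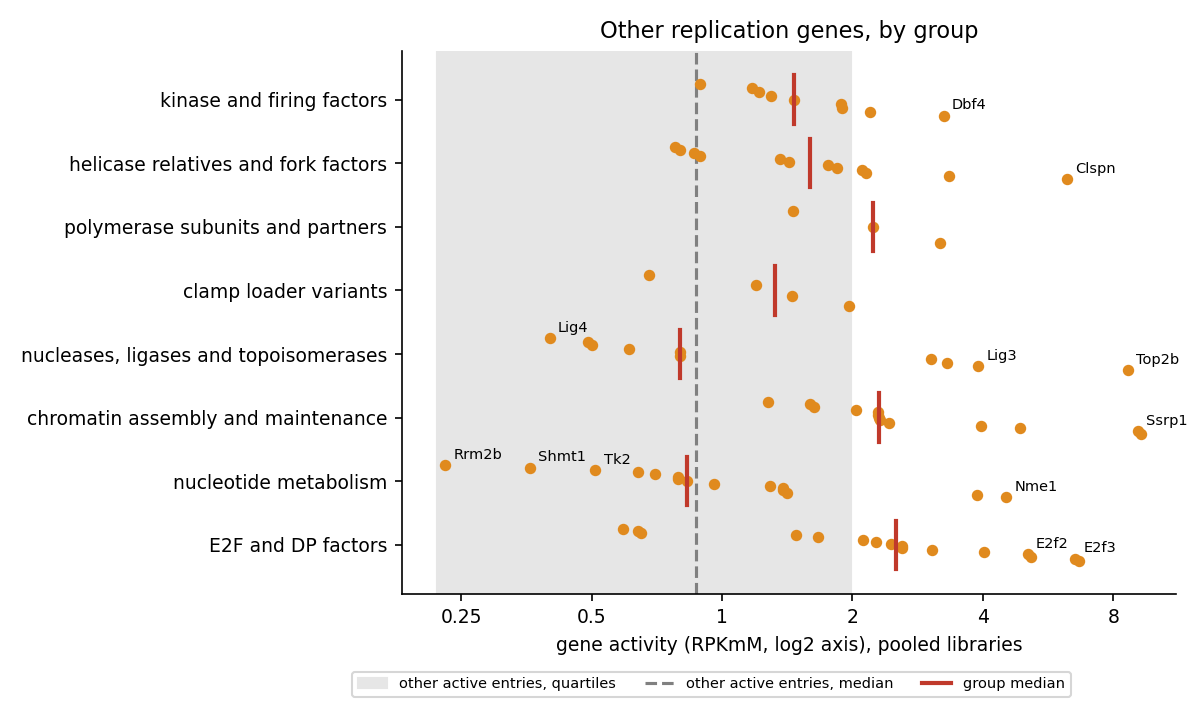
Gene activity (horizontal axis, RPKmM, log2 scale) of the 82 entries of 66 other replication genes by group (vertical axis), with red bars at group medians, grey shading over the quartiles of the 16901 other active entries (0.22 to 1.99) and a dashed line at their median of 0.87. Entries range from Rrm2b at 0.23 to Ssrp1 at 9.26.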

How the data were processed

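GRO-seq libraries were made from 2 replicates of untreated C2C12 myoblasts. The authors mapped reads of 76 bp to mm9 with Bowtie2, trimmed and remapped those that failed, kept uniquely mapped reads, discarded reads at rRNA and tRNA repeats and pooled the replicates. CASAVA 1.8 is named in the submitters' processing notes. The deposited unit is RPKmM, which is RPKM over mappable bases, and the authors wrote Inactive where a Poisson comparison with gene deserts gave an FDR of 0.01 or more. Pooling hides variation between libraries, unique mapping can leave repeated sequence uncounted, and entries under 2 kb were left out by the authors. The table holds neither reads nor mappable bases per entry, and no counting interval was computed.

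Members were all rows whose symbol is among the 46 names. Every result is a count, median, ratio or share over entries, with no test, since entries are not replicates. The lists and members were chosen with earlier results of these data known. All members are named. Of the other replication genes, the counterparts of members, Cdc7 and Dbf4, the E2F factors and the 3 highest and 3 lowest are named. Neighbours of members that start within 1 kb on the opposite strand are named too. Further genes named in the closing section were chosen after their values were seen. Where a list name had no row, synonyms of the RefSeq gene table (GRCm38.p6) were tried. Gene positions are from GENCODE vM1 (mm9, NCBIM37) by symbol, and promoter sequences are from RefSeq (GRCm38.p6), whose coordinates were not mixed with those of mm9. The calculations of the median interval and of the rank correlation were tested on simulated data. Alternatives covered the entry used per symbol, thresholds, pseudocounts of 0.01 and 0.001, and windows. A value was taken as moved outside the 95% order-statistic interval of its median (for groups under 6 entries, their range), by more than 1.5 times for a count, or by more than 0.1 for a correlation. Calculations ran in Python 3.11.15 with pandas 2.3.3, scipy 1.17.1 and numpy 2.4.6, and plots in matplotlib 3.10.9.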

Additional observations from a re-analysis of the deposited data

How the results depend on the processing

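Of 50 alternative values, 43 kept to the main value, 5 moved and 2 changed sign. Many of the 43 could not have moved. For role groups of up to 6 entries the interval spans the range, which medians and geometric means cannot leave. No replication gene entry was inactive or below 0.01, so settings for such entries could not change the replication gene count or median. The ratio of the replication gene median to that of the other active entries, 1.55, became 4.34 with all entries and Inactive taken as 0, 2.62 when geometric means were taken after adding 0.01 to each value, and 2.83 after adding 0.001, as each gives more weight to inactive or barely active entries of the table. Its lowest value was 1.53. The median of 1.345 ranged from 1.34 to 1.58 and did not leave its interval, also without Top2a, and the median of the further list was 1.46 without E2F and DP factors, both alternatives chosen after seeing the data. Of the 56 entries, 16 reached a threshold of 2 in place of the 41 that reached 1. An E2F-type match was found for 9 genes in place of 15 in the 200 bases before the start alone. There, 1.58% of all promoter windows and 2.04% of those of other genes in the table had a match. The rank correlation of activity with gene length across the 56 entries, 0.0017, was −0.0556 with the highest entry per gene and −0.112 as Pearson's correlation of log2 values, so it has no stable sign. Leaving out genes of 5 kb or shorter was also tried for it, likewise chosen after seeing the data. No paired analysis was possible because the only group has a single pooled value per entry, and leaving out a replicate could not be run for the same reason. The table holds neither reads nor mappable bases per entry, and what depth limits was not estimated from it.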

Other observations

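Genes that rebuild chromatin behind the fork had a higher median than the further list as a whole, which had 1.65 RPKmM. The 13 entries of 9 genes had a median of 2.31 RPKmM (quartiles 2.04 and 3.97), and all 13 lay at or above 1, where 58 of the 82 entries of the further list (70.7%) and 32.3% of the whole table did. Ssrp1, a subunit of the histone chaperone FACT, had 9.26 and 9.12, and Slbp, which binds the stem-loop of histone mRNA, had 4.88. The subunits of chromatin assembly factor 1 were lower, with Chaf1a at 1.28 and Chaf1b at 1.6. Of the genes that maintain DNA methylation, Dnmt1 had 2.31, 2.29 and 2.04, and Uhrf1 had 2.32 and 2.29. Outside this group, Clspn, encoding the checkpoint mediator claspin and listed with the fork factors, had 6.25.

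The further genes of nucleotide metabolism, 15 entries of 12 genes, had a median of 0.83 RPKmM (quartiles 0.67 and 1.38), and 6 of the 15 reached 1, where 32.3% of the whole table did. Nme1, a nucleoside diphosphate kinase, had 4.53 and Cad, the enzyme that starts pyrimidine synthesis, had 3.87, both above Tk1 at 2.72. Shmt1, a serine hydroxymethyltransferase of one-carbon metabolism, had 0.36.

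The 46 replication genes lie on 14 chromosomes, with 8 on chromosome 5, 6 on chromosome 8 and 5 on chromosome 11. Cdc6 and Top2a are 69.0 kb apart on chromosome 11 in mm9, with activities of 1.55 and 21.3 RPKmM. Gene length varied from 3.24 kb for Rpa3 to 327.4 kb for Pola1, with a median of 16.1 kb, and the rank correlation of activity with length across the 56 entries was 0.0017, against −0.0477 over 15210 other active entries with a known length. The points are genes and entries of shared genes, not independent samples.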
